A study of Mus musculus with 2 samples.

Results

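The genes described here are the collagens, the laminin chains and both nidogens, with 5 proteins that bind to them: SPARC, nephronectin, fibronectin, perlecan (Hspg2) and agrin (Agrn). They were chosen by gene symbol, as every gene on the arrays named Col or Lam in the pattern of these families plus the 7 named genes Nid1, Nid2, Sparc, Npnt, Fn1, Hspg2 and Agrn. The choice was made with earlier results of these data known, so counts over the set describe it and do not test it. The rule took 59 of the 30198 genes on the arrays, read by 104 probes. Of these, 43 had a probe well above background on at least 1 array, out of 18974 such genes in all, and 16 did not.

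Gata2 is a zinc finger transcription factor of blood-forming cells, vessels and the urogenital tract. The study set collecting duct cells of a Gata2 conditional knockout (CKO) mouse against wild type (WT) cells, with 1 microarray of each. The CKO mice had the genotype Gata2flox/-::Pax8-rtTA::Tet-Cre, that is 1 floxed and 1 null allele of Gata2, with a doxycycline-dependent activator under the Pax8 promoter, which is active along renal tubules, and a Cre recombinase that this activator switches on. Doxycycline was given for 4 weeks from 4 weeks of age, and the cells were taken at 8 weeks from mice of mixed sex. WT cells came from mice of the same age whose label gives no floxed allele and no transgene, and whose protocol text repeats the induction. So the null allele carried outside the tubule, the transgenes and the tubule deletion cannot be told apart. The design gives 3 mice per genotype, while the array names describe mixtures, so each array stands for pooled or unspecified animals and counts as 1 sample. Collecting duct cells were captured with Dolichos biflorus agglutinin (DBA), a lectin, on magnetic beads, and 50 ng of their RNA was amplified and labelled.

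Collagens are trimers wound from chains in which glycine recurs every 3 residues. Basement membranes, the thin sheets under epithelia and around vessels, are built from a network of type IV collagen and a network of laminins, trimers of an alpha, a beta and a gamma chain, which nidogens and perlecan link. The interstitial matrix between tubules and vessels holds the fibrillar collagens, made mainly by fibroblasts. Type IV collagen has 6 chains in the mouse, and its alpha3, alpha4 and alpha5 chains form the network of the mature glomerular basement membrane and of some tubules.

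A level below is a probe's processed signal as a percent of the 75th percentile of all probes on its array, which was 250.1 on the CKO array and 314 on the WT array. Differences are log2 levels, CKO minus WT, so that -1 is 2-fold lower in CKO cells. The error given with a difference is the scanner software's spot error over both arrays, which leaves out the spread between mice, purifications and labellings. With 1 array per genotype no test was possible, the number of arrays limits the precision, and no difference has a replicate check. The share of spots well above background was 62.4% on the CKO array and 64.1% on the WT array, and the median difference of all genes was 0.05. Gata2 itself had levels of 969% in CKO and 1255% in WT cells at 1 probe, a difference of -0.37 ± 0.20. At its other probe it had 877% in CKO and 1092% in WT cells, a difference of -0.32 ± 0.20. The labels do not give the deleted exons, so these probes may read RNA outside the deleted part and do not check the deletion.

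The genes of this family did not differ from WT as 1 group. Nid1, Nid2, Sparc and Col13a1 were between 3.35-fold and 12.2-fold lower in CKO cells, the chains of the widespread type IV collagen network stood at 52.8% and 54.8% of WT, and most fibrillar collagens were lower too. The laminin chains of the mature tubule, perlecan and the other type IV chains had differences between -0.08 and 0.30. Among the 43 measured genes, 6 were at least 2-fold lower and 1 was at least 2-fold higher in CKO cells, bounds included. Of all 18795 genes with a difference, 2.86% were at least 2-fold lower and 1.5% at least 2-fold higher, against 14.0% and 2.33% of the 43. The 6 were Col13a1, Nid1, Sparc, Nid2, Lama1 and Col5a2, and the 1 was Lamb3. In CKO cells 25 of the 43 genes were below their WT value, against 42.5% of all genes, and 18 were above it, against 57.5%. Their median difference was -0.05. Of the 43, 3 (Col5a1, Col9a3 and Col23a1) were measured on the WT array only and enter as bounds below 0, and over the 40 read on both arrays the median was -0.01, with 22 below 0. In bulk RNA, fewer cells of a type and less RNA per cell cannot be told apart.

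**Figure D1:**
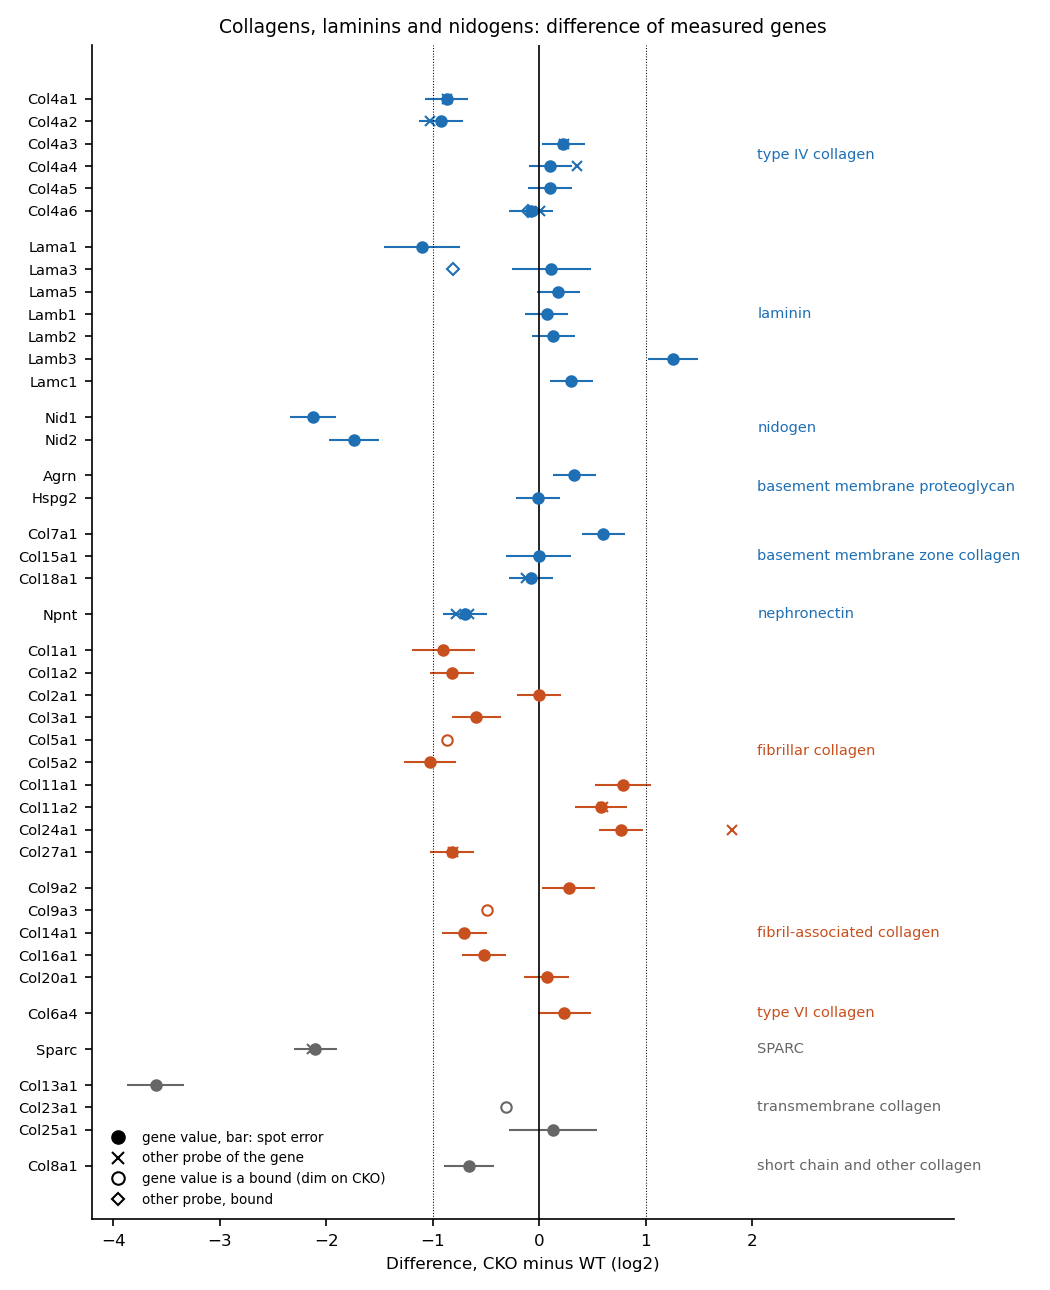
Difference of each measured gene on the log2 scale, CKO minus WT (horizontal axis), for 42 of the 43 genes, grouped by role. Filled points are gene values with the spot error as bars, crosses are other probes of the same gene, open circles are gene values that are bounds because the CKO signal was not well above background, open diamonds are bounds of other probes, and dotted lines mark 2-fold. Nid1, Nid2, Sparc and Col13a1 lie beyond the left dotted line by more than their error, and Lamb3 lies beyond the right one.

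The sequences below show what the arrays read of a collagen and what stands before Nid1 and Sparc, which were over 4-fold lower in CKO cells. In 3 probes glycine codons, GGN, recur every 3 codons over the full length, as in the triple helix. Probes with such a run over part of their length were not sought. Of the 3, those of Col11a2 and Col5a1 are printed, with capitals on these glycine codons. The probe of Col5a3 was not well above background on either array. Positions are those of the files, in mm9. Each interval runs from the first to the last base of the probe, 167 bases for Col11a2 and 2424 for Col5a1. The 60 bases printed are the probe and not the whole interval.
Col11a2, chr17:34189287-34189453: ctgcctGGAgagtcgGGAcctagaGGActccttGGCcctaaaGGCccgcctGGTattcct
Col5a1, chr2:27842243-27844666: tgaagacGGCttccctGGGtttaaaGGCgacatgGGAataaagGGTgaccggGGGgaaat
The Col11a2 probe gave a difference of 0.60, and the Col5a1 probe was well above background in WT cells only, with no fold.
The promoters are the 250 bases before the annotated start from RefSeq, in GRCm38.p6, with capitals on a GC box, GGGCGG on either strand. They are shown for the 2-fold members whose window lies outside the span of every protein-coding gene.
Nid1, chr13:13437352-13437601, plus strand: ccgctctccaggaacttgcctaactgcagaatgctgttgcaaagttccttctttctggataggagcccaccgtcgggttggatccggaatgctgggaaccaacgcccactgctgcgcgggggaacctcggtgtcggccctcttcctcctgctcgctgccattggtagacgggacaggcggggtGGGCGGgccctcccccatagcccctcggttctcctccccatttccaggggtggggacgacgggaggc
Sparc, chr11:55420081-55420330, minus strand: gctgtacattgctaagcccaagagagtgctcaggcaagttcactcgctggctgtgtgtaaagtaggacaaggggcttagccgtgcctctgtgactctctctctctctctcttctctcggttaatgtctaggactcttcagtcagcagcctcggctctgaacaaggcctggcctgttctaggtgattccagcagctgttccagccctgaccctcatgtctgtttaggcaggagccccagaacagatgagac
The Nid1 window holds 1 GC box and 1 CCAAT box, CCAAT on either strand, and the Sparc window holds 0 of each. Neither holds a GATA word, taken as GATA with A or T before it and A or G after it on either strand. Over all 32851 windows of this length in the table, 32.7% hold a GC box, 33.8% a CCAAT box and 26.5% a GATA word. Of the 59 genes, 43 matched the table with 49 windows in all, of which 28 hold a GC box, 15 a CCAAT box and 6 a GATA word. A match is a description of letters in a window and not a binding site.

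The type IV collagen chains split by the network they build. Col4a1, the chain present as a pair in the trimer of nearly all basement membranes, had levels of 476% in CKO and 870% in WT cells. Its difference was -0.87 ± 0.20, and its other probe also gave -0.87. Col4a2, the partner chain of that trimer, had levels of 183% in CKO and 346% in WT cells. Its difference was -0.92 ± 0.20, with -1.02 at the other probe. Both chains were lower in CKO cells at every probe, by more than the spot error.

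Col4a3, Col4a4 and Col4a5, the chains of the mature glomerular network, were not lower. Col4a3 had levels of 198% in CKO and 169% in WT cells, a difference of 0.23 with 0.24 at its other probe. Col4a4 had 1395% in CKO and 1298% in WT cells, a difference of 0.10 with 0.35 at the other probe. Col4a5 had 92.9% in CKO and 86.5% in WT cells, a difference of 0.10. Col4a6, which pairs with Col4a5 in some epithelial basement membranes, had 98.1% in CKO and 103% in WT cells, and its probes spread from a bound of -0.10 to 0.01. Col4a1 and Col4a2 lie head to head on chromosome 8, where their annotated spans overlap by 85 bases in GRCm38.p6, and Col4a4 and Col4a3 do so on chromosome 1 by 114 bases. Within each pair the differences were close to each other, -0.87 and -0.92 in the first and 0.10 and 0.23 in the second.

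**Figure D2:**
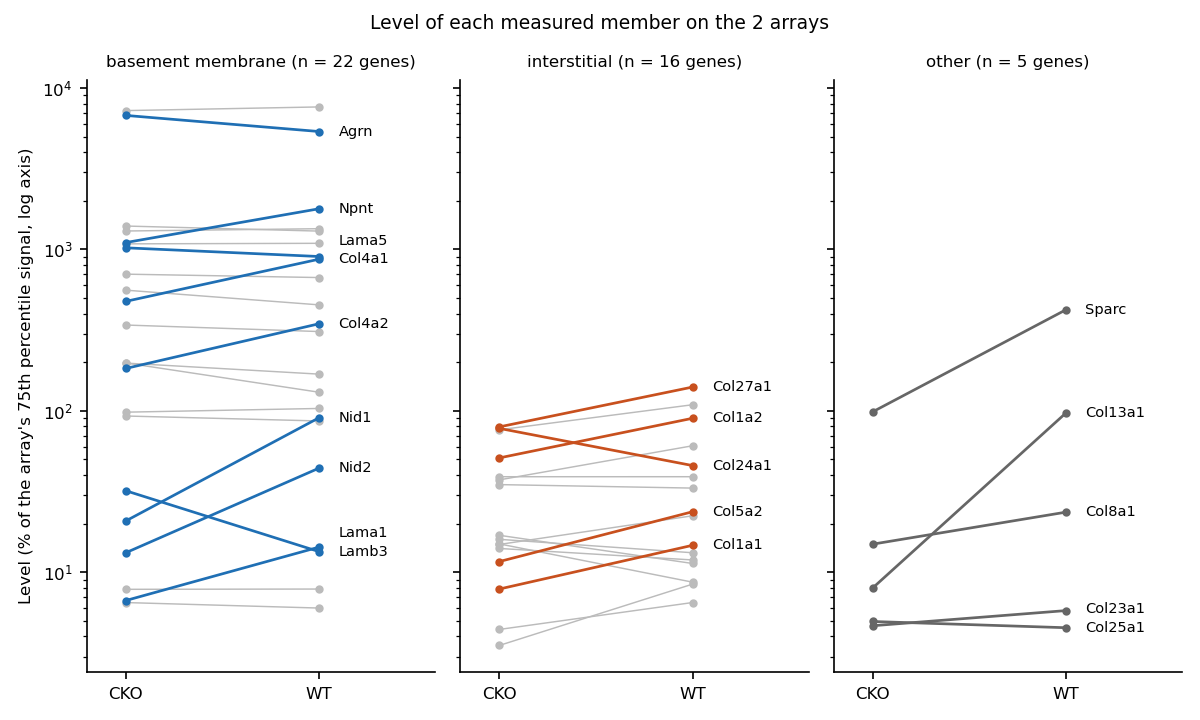
Level of each measured gene on the CKO array (left) and the WT array (right) of each panel, as a percent of the 75th percentile signal of the array on a log axis, with a line joining the values of a gene. The panels hold 22 basement membrane, 16 interstitial and 5 other genes, and coloured lines are named. The Nid1 line lies at 20.8% in CKO and 90.7% in WT cells and the Lamb3 line slopes the other way, at 32.0% in CKO and 13.4% in WT cells.

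The laminin chains of tubular basement membranes were close to their WT levels. Lama5, the alpha chain of most mature epithelial laminins, had levels of 1023% in CKO and 903% in WT cells, a difference of 0.18. Lamb1, its usual beta partner in tubules, had 702% in CKO and 669% in WT cells, a difference of 0.07. Lamb2, the beta chain of the glomerular basement membrane, had 340% in CKO and 310% in WT cells, a difference of 0.13. Lamc1, the gamma chain shared by nearly all of these trimers, had 559% in CKO and 453% in WT cells, a difference of 0.30. The 3 chains of the trimer that Lama5 forms with Lamb1 and Lamc1 thus lay between 0.07 and 0.30, above the median of all genes. When the arrays were scaled by their spike-in transcripts, which put all genes lower in CKO cells by 0.54, these 4 chains were below 0, as were Col4a3, Col4a4, Col4a5, Agrn, Col6a4, Col9a2, Col20a1, Col25a1 and Lama3.

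Other laminin chains stood apart from these. Lamb3, the beta chain of the laminin of anchoring filaments, had levels of 32.0% in CKO and 13.4% in WT cells, a difference of 1.25 ± 0.23, or 2.38-fold higher, and 0.76 with another background correction (normexp). Normexp here adds an offset of 50 to every signal, which shrinks the fold between dim signals. Lama3, an alpha chain of epithelial laminins, had 6.49% in CKO and 6.0% in WT cells at the probe used, a difference of 0.11 ± 0.37, while its other probe was well above background in WT cells only, with a bound of -0.81. Lamb3 was thus higher by more than its error, while the probes of Lama3 differed in sign, as did its value in 5 of 10 other ways of processing. Lama1, the alpha chain of embryonic basement membranes and of some adult tubules, had 6.68% in CKO and 14.3% in WT cells, a difference of -1.10 ± 0.35. With normexp this difference was -0.11. Lama2, Lama4 and Lamc3 were not well above background on either array.

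Both nidogens, the rod-shaped proteins that tie the laminin network to type IV collagen, were lower in CKO cells. Nid1 had levels of 20.8% in CKO and 90.7% in WT cells at its probe at chr13:13604417-13604476 in mm9. Its difference was -2.13 ± 0.22, which is 4.36-fold lower. Nid2 had 13.2% in CKO and 44.2% in WT cells, a difference of -1.74 ± 0.24, or 3.35-fold lower. Each nidogen has 1 probe on the arrays, so no other probe checks these values. With normexp the differences were -1.30 for Nid1 and -0.76 for Nid2, so that Nid2 was then under 2-fold lower.

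The remaining basement membrane genes differed in both directions. Npnt, encoding nephronectin, a ligand of the integrin alpha8 beta1 that the ureteric bud secretes in the embryonic kidney, had 1103% in CKO and 1786% in WT cells. Its difference was -0.70 ± 0.20, and its 3 probes lay between -0.78 and -0.66. Hspg2, encoding perlecan, the large heparan sulfate proteoglycan of basement membranes, had 1082% in CKO and 1091% in WT cells, a difference of -0.01. Agrn, encoding agrin, another such proteoglycan, had 6761% in CKO and 5372% in WT cells, a difference of 0.33. Nephronectin was thus lower at every probe, and the proteoglycans stayed within 0.33 of WT.

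The collagens of the basement membrane zone showed the same spread. Col18a1, the source of endostatin, had 7242% in CKO and 7631% in WT cells, a difference of -0.08 with -0.12 at its other probe. Col7a1, the collagen of anchoring fibrils, had 198% in CKO and 130% in WT cells, a difference of 0.60. Col15a1, a relative of Col18a1, had 7.84% in CKO and 7.87% in WT cells, a difference of -0.01. Col7a1 was the 1 member of this group that was at least 1.5-fold higher.

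Of the 11 fibrillar collagen genes, 10 were measured, 9 of them on both arrays with a median difference of -0.59 and 6 of the 9 below 0, Col2a1 among them at a value that rounds to 0.00. With the bound of Col5a1, the median over the 10 was -0.70. Of all genes, 42.5% were below 0. Col1a1, the main chain of type I collagen, had levels of 7.87% in CKO and 14.7% in WT cells on a probe printed 10 times. Its CKO spots had signals of 15.4 to 24.3 with a median of 20.4, and its WT spots 40.8 to 51.9 with a median of 46.0. These signals are unscaled, and the spots are copies of 1 probe on 1 array per genotype. The difference of Col1a1 was -0.90 ± 0.29, with normexp it was -0.13, and with the median over all its probes it was -0.29. Its other probes were dim on both arrays, with signals of 6.20 in CKO and 9.55 in WT cells, and of 2.64 in CKO and 2.78 in WT cells. Col1a2, the second chain of type I collagen, had 51.1% in CKO and 89.9% in WT cells, a difference of -0.82 ± 0.21. Its difference stayed between -0.87 and -0.62 in every setting other than spike-in scaling.

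The chains of types III and V, which form mixed fibrils with type I, were lower as well at the probes used. Col3a1 had 14.9% in CKO and 22.4% in WT cells, a difference of -0.59 ± 0.23, and -0.16 with normexp. It was -0.17 with the median over both its probes, 1 of them dim on both arrays. Col5a2 had 11.6% in CKO and 23.7% in WT cells, a difference of -1.03 ± 0.25, and -0.32 with normexp. Col5a1 was not well above background in CKO cells. At the probe used it had measured levels of 3.52% there and 8.44% in WT cells, so it was at least 1.83-fold lower. Its other probe, the helix probe shown above, had 4.66% in CKO and 4.09% in WT cells and gave no bound. The bound of Col5a1 thus rests on 1 dim probe. The differences of Col3a1 and Col5a2 were thus smaller with normexp, whose offset shrinks the folds of dim signals.

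Other fibrillar genes went either way. Col27a1, a fibrillar collagen of cartilage, had 79.5% in CKO and 140% in WT cells, a difference of -0.82 ± 0.21 with -0.81 at its other probe. Col24a1, its relative, had 77.9% in CKO and 45.8% in WT cells, a difference of 0.77 ± 0.21, and 1.81 at its other probe. Col11a1, a chain of the type XI collagen of cartilage, had 15% in CKO and 8.68% in WT cells, a difference of 0.79 ± 0.26. These genes kept their direction at every probe that was read. Col11a2 had 16.9% in CKO and 11.3% in WT cells, a difference of 0.58 ± 0.24, with 0.60 at the helix probe shown above. Col2a1, the main cartilage collagen, had 39.1% in CKO and 39.1% in WT cells and a difference of 0.00.

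Fibril-associated collagens sit on the surface of these fibrils, and 5 of their 9 genes were measured, 4 of them on both arrays with a median difference of -0.22, 2 below 0 and 2 above it. Col14a1 had 37.3% in CKO and 60.7% in WT cells, a difference of -0.70 ± 0.21. It was -0.45 with normexp and -0.22 with the median over all its probes, 1 of them dim on both arrays. Col16a1 had 76.3% in CKO and 109% in WT cells, a difference of -0.52 ± 0.21, while the median over all its probes, 1 of them dim on both arrays, was 0.62. Both were lower at the probe used. Col9a3 was at least 1.40-fold lower, and Col9a2 and Col20a1 had differences of 0.28 and 0.07. Of the microfibrillar type VI collagen genes, Col6a4 was measured, with a difference of 0.24, and Col6a1, Col6a2 and Col6a6 were not well above background.

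Fn1, encoding fibronectin, was not well above background on either array. Of its 3 probes, 1 was printed 10 times, with signals of 2.38 to 5.40 in CKO and 3.00 to 13.0 in WT cells, and medians of 2.87 in CKO and 7.67 in WT cells. The other probes had signals of 6.90 in CKO and 7.75 in WT cells, and of 2.38 in CKO and 2.52 in WT cells. No fold is given for it. The other genes not well above background on either array were Col5a3, Col8a2, Col9a1, Col10a1, Col12a1, Col17a1, Col19a1, Col22a1 and Col28a1.

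Outside both compartments stood the lowest difference of the 43 genes. Col13a1, a transmembrane collagen of cell junctions, had levels of 7.98% in CKO and 97.0% in WT cells at its probe at chr10:61301277-61301336 in mm9. The difference was -3.60 ± 0.27, or 12.2-fold lower, and -1.97 with normexp. Its other probe, 1036 bases upstream on the transcript, was not well above background on either array, with signals of 2.45 in CKO and 2.56 in WT cells, so the 12.2-fold rests on 1 probe. Sparc, encoding a secreted protein that binds collagen and calcium, had 98.5% in CKO and 423% in WT cells. Its difference was -2.10 ± 0.20 with -2.13 at its other probe, or 4.29-fold lower, and it lay between -2.14 and -1.91 in every setting other than spike-in scaling.

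The other genes of this group were dim. Col8a1, a short chain collagen of vessel walls, had 14.9% in CKO and 23.6% in WT cells, a difference of -0.66 ± 0.23, which was -0.26 with normexp and -0.20 with the median over both its probes, 1 of them dim on both arrays. Among the other transmembrane collagens, Col23a1 was at least 1.24-fold lower and Col25a1 had a difference of 0.13 ± 0.42, which was -0.03 with cyclic loess. A collagen that the symbol rule missed, named Emid2 in the files and Col26a1 in RefSeq, had 1056% in CKO and 1526% in WT cells, a difference of -0.53 ± 0.20.

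Set side by side, the 22 measured basement membrane genes had a median difference of 0.03, with 11 below 0, while the 14 interstitial genes read on both arrays had a median of -0.26, with 8 below 0. With Col5a1 and Col9a3, which were measured in WT cells only and so had to lie below 0, the 16 interstitial genes had a median of -0.50, with 10 below 0. The median over all genes was 0.05, and 42.5% of all genes were below 0. At least 1.5-fold lower were 6 of the 22 and 7 of the 16, and at least 1.5-fold higher 2 and 2, against 6.43% of all genes lower and 6.84% higher. The gap between the medians was 0.54 on the log2 scale with these bounds and 0.29 over probes read on both arrays. It was 0.05 with normexp and 0.11 when each gene took the median over all its probes, so the size of the gap rested on these choices. The interstitial signals were nearer to background, with 16 of 16 under 200 in CKO and 13 of 16 in WT cells, against 6 of 22 in CKO and 5 of 22 in WT cells for basement membrane genes. The part of signal strength in the gap was not tested.

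**Figure D3:**
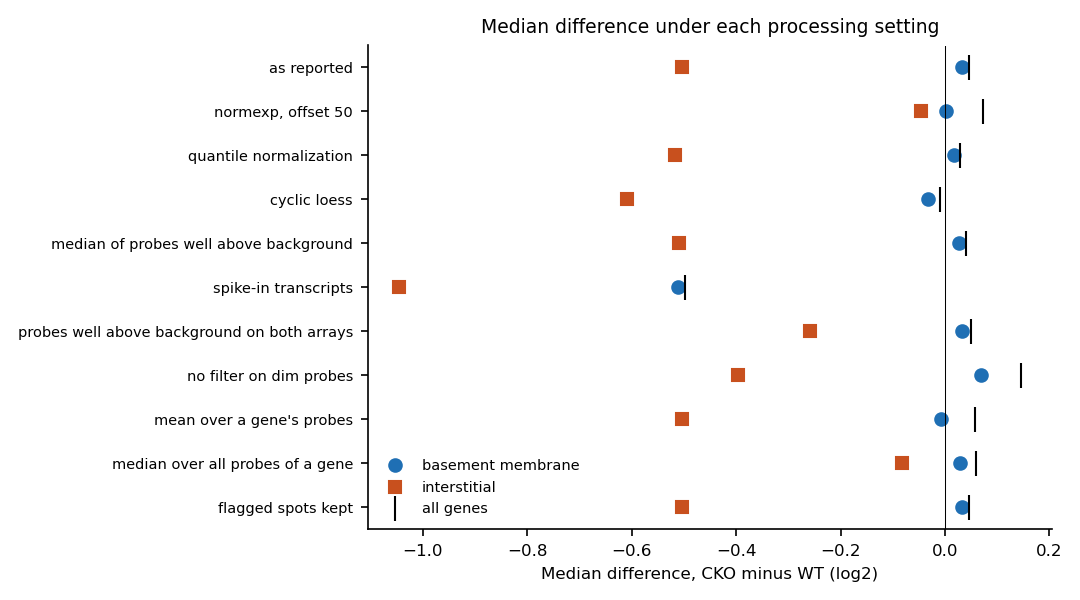
Median difference on the log2 scale, CKO minus WT, of basement membrane genes (circles), interstitial genes (squares) and all genes (vertical ticks) under each way of processing, 1 row per setting. The interstitial median is -0.50 as reported, with bounds, and -0.26 over probes read on both arrays, and it lies close to the others with normexp (-0.045) and with the median over all probes (-0.083), while spike-in scaling moves all 3 medians to lower values.

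Agreement between probes could be read for 13 genes with at least 2 probe values. In 11 of the 13, or 84.6%, all probes had 1 sign, against 61.1% of the 5588 such genes on the arrays. The exceptions were Col4a6 and Lama3, and Sparc was the 1 gene with every probe at least 2-fold lower, against 0.984% of all such genes. The spread between probes of a gene had a root mean square SD of 0.22 over 12 of these genes, against 0.27 over 5309 genes. Another 18 probes, of 13 measured genes, were not well above background on either array and gave no value. Of these, 13 probes of 11 genes share their transcript accession with the probe used, and 9 of the 13 lay upstream of it, 8 by more than 1000 bases. Whether the position on the transcript set their signal was not tested.

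The enzymes that make and cross-link collagen held 22 measured genes of 28, of which 16 were below 0, 2 at least 2-fold lower and 0 at least 2-fold higher. Loxl1, a lysyl oxidase that cross-links elastin and collagen, had 9.0% in CKO and 53.7% in WT cells, a difference of -2.58 ± 0.26. Pxdn, encoding the peroxidase that forms sulfilimine cross-links in type IV collagen, had 5.79% in CKO and 25.4% in WT cells, a difference of -2.13 ± 0.31. P3h3, a prolyl hydroxylase of collagen, had a difference of -0.81. The median was -0.24 for the enzymes and -0.14 for the 20 read on both arrays, against 0.05 for all genes. Of all genes, 42.5% were below 0, 2.86% at least 2-fold lower and 1.5% at least 2-fold higher.

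Among receptors for these matrix proteins 15 of 19 genes were measured, with a median of 0.04 (0.10 over the 14 read on both arrays). At least 2-fold lower were 2 of the 15, against 2.86% of all genes. These were Itga11, a collagen receptor of fibroblasts that was not well above background in CKO cells and at least 2.82-fold lower, and Cd44, a hyaluronan receptor, at -1.20. Itga1, a collagen receptor, was at 0.85 with other probes down to -0.47. Other basement membrane proteins had a median of 0.09 over 9 of 16 genes, with Ntn4, a laminin-related netrin, at -1.59 and Smoc2, a SPARC relative, at 1.40.

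Other interstitial proteins had a median of -0.45 over the 16 of 21 genes with a difference, with 4 at least 2-fold lower and 1 higher. Of all genes, 2.86% were at least 2-fold lower and 1.5% higher. Of the 16, 4 (Eln, Fbn1, Tnc and Postn) were measured in WT cells only, Fbn1 and Tnc among the 4 lower ones, and over the other 12 the median was -0.27, with 2 at least 2-fold lower. Tnc, encoding tenascin-C, was not well above background in CKO cells at the probe used and at least 7.73-fold lower, and its other probes reached -1.05. All 17 genes of TGF-beta signalling, which drives matrix genes in many tissues, were below 0, against 42.5% of all genes. Their median was -0.39, and 6 were at least 2-fold lower. Ltbp2, a latent TGF-beta binding protein, was at -2.75 ± 0.31, Tgfb3, a TGF-beta ligand, at -1.46 and Ccn1, a matricellular protein, at -1.19.

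Markers of cells that a lectin capture could carry along were also mostly lower in CKO cells, and their part in the results was not tested. Of all genes, 42.5% were below 0. Of 12 markers of fibroblasts, pericytes and smooth muscle with a difference, out of 15, 9 were lower in CKO cells. Together with Lum, which gave no difference, they had a summed level of 30.4 times the 75th percentile in CKO and 37.6 times in WT cells. Acta2 alone had a level of 1627% in CKO and 1577% in WT cells, the largest of the list. Des and Pdgfra were not well above background, and 2 of the 12 were measured in WT cells only. Its markers ranged from -1.61 for Cspg4 to 1.06 for Meg3, with Vim at -1.53, Mylk at 0.19 and Acta2 at 0.05, whose probes spread from -1.16 to 0.59. Of 11 macrophage markers all were lower, with sums of 84.4 times in CKO and 159 times in WT cells, and Cd5l was at -3.57. Endothelial markers were lower in 12 of 13 measured genes, with sums of 2.34 times in CKO and 3.11 times in WT cells, and podocyte markers in 9 of 9, with sums of 4.11 times in CKO and 6.24 times in WT cells. Proximal tubule markers were lower in 8 of 9, with sums of 5.74 times in CKO and 8.30 times in WT cells.

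The collecting duct's own cell types differed in direction. Of 12 principal cell markers 9 were lower, against 42.5% of all genes. Their sums were 991 times in CKO and 1177 times in WT cells, with a median of -0.26. Of 9 intercalated cell markers 0 were lower, with sums of 276 times in CKO and 159 times in WT cells and a median of 0.79. Every marker of both lists was well above background on both arrays.

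**Figure D4:**
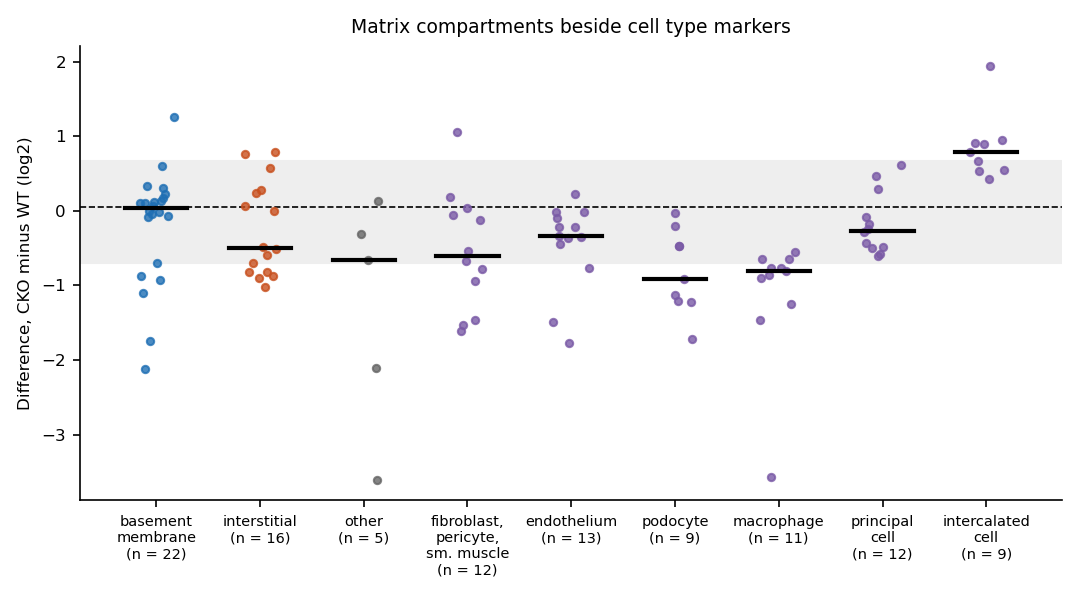
Differences on the log2 scale, CKO minus WT, 1 point per gene, of the 22 basement membrane, 16 interstitial and 5 other genes beside markers of 6 cell types. Bars are medians, the dashed line is the median of all genes (0.05) and the shaded band runs from their 5th to their 95th percentile (-0.70 to 0.67). Basement membrane genes have a median of 0.03 and interstitial genes one of -0.50 with bounds included, while macrophage markers lie all below 0 and intercalated cell markers all above 0.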

How the data were processed

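Per the file headers, the deposited intensity values were extracted by the authors with Agilent Feature Extraction 10.7.3.1 from 1-colour arrays placed on mm9, both on 1 slide and in 1 scan. How the authors normalized between arrays is not stated in the labels or headers. There were 43379 spots other than controls per array, of 41174 probes. Outlier flags were raised on 73 spots of the CKO array and 66 of the WT array, and 0 were saturated. A spot flagged on either array was left out of both.

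The processed signal was taken on the log2 scale minus the 75th percentile of its array, and spots of 1 probe were averaged. A gene took its probe of highest mean level out of those that cleared background on either array. Where 1 array alone did, the difference is a bound, at least that large, against the lowest signal well above background, 11.6 on the CKO array and 12.0 on the WT array, or the dim signal itself where higher. Medians and counts include bounds.

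Arrays were compared with no test, since each genotype had 1. Calls are at least 2-fold. Symbols came from the files, of which 26876 accessions matched a RefSeq table of GRCm38.p6. Members, roles and lists were chosen with earlier results of these data known. Named are every member but 1, which is counted but not reported here, Gata2, and up to 3 measured genes of largest difference per list. Python 3.11.15, pandas 2.3.3, R 4.3.3 and limma 3.58.1 were used, and the steps were tested on simulated data. The simulation changed only genes with WT signals over 200 and made no bounds. It thus did not test changes of dim genes. Alternatives were other scaling (quantile, cyclic loess, spike-in), normexp with offset 50, filters, probe rules and a 1.5-fold limit. Apart from the helix probes, exon and untranslated positions of probes were not analysed here.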

Additional observations from a re-analysis of the deposited data

How the results depend on the processing

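As reported, 6 of the genes were at least 2-fold lower and 1 higher in CKO cells, the medians were -0.05 for all 43, 0.03 for basement membrane and -0.50 for interstitial genes, and the lists of related genes held 15 genes at least 2-fold lower and 2 higher. Of all genes, 2.86% were at least 2-fold lower and 1.5% higher as reported. With no bounds, from probes read on both arrays, the interstitial median was -0.26 and the gap 0.29, against 0.54 as reported. At 1.5-fold, 16 of the genes were lower and 4 higher, against 6.43% and 6.84% of all genes. Normexp gave 3 of 40 genes lower and 0 higher, against 204 and 65 of all 18357 genes. Its interstitial median was -0.045, its gap between the medians was 0.047, and 7 related genes were lower and 0 higher. Spike-in scaling shifted every gene by -0.54. It gave 18 of the 43 lower and 0 higher, against 1635 and 59 of all 18851 genes. Its medians were -0.59 for all 43, -0.51 for basement membrane and -1.05 for interstitial genes. With it, 24 related genes were lower and 0 higher. The mean over a gene's probes gave 2 higher, and the median over all probes gave 2 higher, an interstitial median of -0.083, a gap of 0.11 and 1 related gene higher. Of all genes, 270 of 18798 were at least 2-fold higher with the mean and 389 of 18974 with the median. Cyclic loess also gave 1 related gene higher, against 206 of all 18934 genes. The offset of 50 in normexp shrinks the fold between dim signals by arithmetic, and its share in the normexp changes was not separated. Apart from the spike-in shift and the 1.5-fold limit, the cause of these changes was not tested. Of all genes at least 2-fold apart, 65.6% were lower as reported, 75.8% with normexp, 75.7% with cyclic loess, 96.5% with spike-in scaling and 50.6% with no filter on dim probes. Signal over background limits the genes with CKO signals under 200, which include all 16 interstitial ones. No paired analysis was possible because each genotype had 1 array.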
